A study of Mus musculus with 6 samples.

Results

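The protein-coding genes of the cytosolic ribosome were followed in mouse spinal cord during motor neuron disease. Members were all genes whose probe sets carried exactly 1 symbol, where that symbol began with Rpl or Rps followed by a digit, a p or an a, leaving out the S6 kinase genes and pseudogenes. The rule found 35 of 8251 named genes, 17 of the large subunit (Rpl) and 18 of the small subunit (Rps), where a complete RefSeq gene table would give 89. The probe set with the highest mean intensity stood for its gene. Of the 35 members 25 had 1 probe set, and the other 10 had up to 5.

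RNA was measured on 6 oligonucleotide arrays, 1 for each of 3 genotypes at 2 ages, and each array held RNA from 4 pooled spinal cords. Nontransgenic mice, labelled B6SJL, carried no transgene. WT-SOD1 mice carried the wild-type form of SOD1, were labelled as B6SJL at 75 days and had no strain label at 110 days. G93A-SOD1 mice carried SOD1, the copper-zinc superoxide dismutase, with the G93A substitution of familial amyotrophic lateral sclerosis, and were labelled B6SJL-G93A-SOD1 at 75 days and B6SJL-G93A-SOD1H at 110 days. By the submitters' account the G93A-SOD1 mice had tremor and partial paralysis at 110 days but were presymptomatic at 75 days, and the WT-SOD1 mice stayed free of disease. The nontransgenic and the WT-SOD1 array of an age are therefore called its disease-free arrays. The sources used here give neither the promoter of the transgenes nor the sex of the mice.

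The ribosome translates messenger RNA into protein. Its small subunit holds the messenger RNA and checks the codon, and its large subunit joins the amino acids. Each ribosome contains most of its proteins in a single copy, and their genes are expressed in nearly every cell. Ribosomal protein transcripts characteristically begin with a run of pyrimidines, the terminal oligopyrimidine tract, through which growth signals set how well these transcripts are translated. In neurons, ribosomes lie in the cell body, in dendrites and in axons.

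The start regions of 28 of the 35 members were found in a RefSeq promoter table (GRCm38.p6), which gives 250 bases before and 50 bases after each start. The table held 37 starts for them. A run of at least 8 pyrimidines between 20 bases before and 50 bases after the start was present at 19 of the 37 starts (51.4%), against 25.4% of all 32851 starts in the table. The motif CCGGAAG, searched on both strands over all 300 bases, was present at 12 of the 37 starts (32.4%), against 8.86% of all starts. It overlaps the core of ETS family binding motifs. The 5 windows below, each of 30 bases before and 30 bases from the start, belong to the members highest above the disease-free arrays at 110 days (Rplp0, Rpl10a) and at 75 days (Rps18), or hold clear examples of these features (Rpl7a, Rps10), which is why they are shown. Capitals mark pyrimidine runs of at least 8 bases and matches to CCGGAAG. The windows lie at chr5:115559437-115559496, plus strand (Rplp0), chr17:28328535-28328594, plus strand, the downstream of 2 starts (Rpl10a), chr2:26910777-26910836, plus strand (Rpl7a), chr17:33955636-33955695, minus strand (Rps18) and chr17:27635215-27635274, minus strand (Rps10).
Rplp0: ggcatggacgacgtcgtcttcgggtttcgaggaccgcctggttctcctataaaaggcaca
Rpl10a: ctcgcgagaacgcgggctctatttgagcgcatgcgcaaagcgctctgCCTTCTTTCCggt
Rpl7a: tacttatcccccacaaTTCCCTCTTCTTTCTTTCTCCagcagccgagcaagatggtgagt
Rps18: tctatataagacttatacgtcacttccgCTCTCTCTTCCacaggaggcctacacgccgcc
Rps10: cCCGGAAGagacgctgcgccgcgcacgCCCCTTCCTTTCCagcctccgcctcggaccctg
In Rpl7a, Rps18 and Rps10 the run lay across the annotated start. A match describes the letters of the window and says nothing of a bound factor. These features were not set against the array values.

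Median intensity per array lay between 77.7 and 80.9. Intensities were floored at 31, the 25th percentile of all values, and set to log2. Testing was limited to the 6737 probe sets that rose above the overall median of 79.7 on 1 array or more. Of the 35 members 27 passed, 12 of the large and 15 of the small subunit. The 8 untested members were Rpl32, Rpl38, Rpl39, Rpl39l, Rpl7l1, Rps14, Rps15 and Rps20. Rpl39, Rps15 and Rps20 lay at or under the floor on all 6 arrays, and Rps14 read 22.9 to 37.8. The highest reading of an untested member was 64.8, that of Rpl32. Every growing cell needs Rps14, Rps15 and Rps20, and a reading at the floor gives no level of their transcripts. Because a tested member had to be bright on at least 1 array, counts below cover the 27 tested members and not all 35. Brightness differs between probe sets for reasons of sequence, and members are therefore compared across arrays and not with each other.

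Of the representative probe sets 9 carry a suffix that marks possible cross-hybridisation, and ribosomal protein genes have many near-identical pseudogene copies. The 9 are those of Rpl7, Rpl32, Rpl38, Rpl41, Rps4l, Rps13, Rps24, Rps27l and Rps28. The probe sets of Rpl7 and Rps24 are annotated from the same sequence record. Their values cannot be counted as independent readings of separate genes. The other probe sets of these 2 genes were not tested and read only 38.7 to 49.6 (Rpl7) and 26.0 to 35.4 (Rps24).

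The members varied little over the 6 arrays. The ratio of the highest to the lowest array had a median of 1.28 over the tested members, with a range of 1.14 to 1.52, and 26 of 27 members stayed under 1.5. Over all tested probe sets the median ratio was 1.29, and 80.6% stayed under 1.5. The members' range was thus narrower at its upper end than that of the table as a whole, while the typical member varied as much as the typical probe set.

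**Figure D1:**
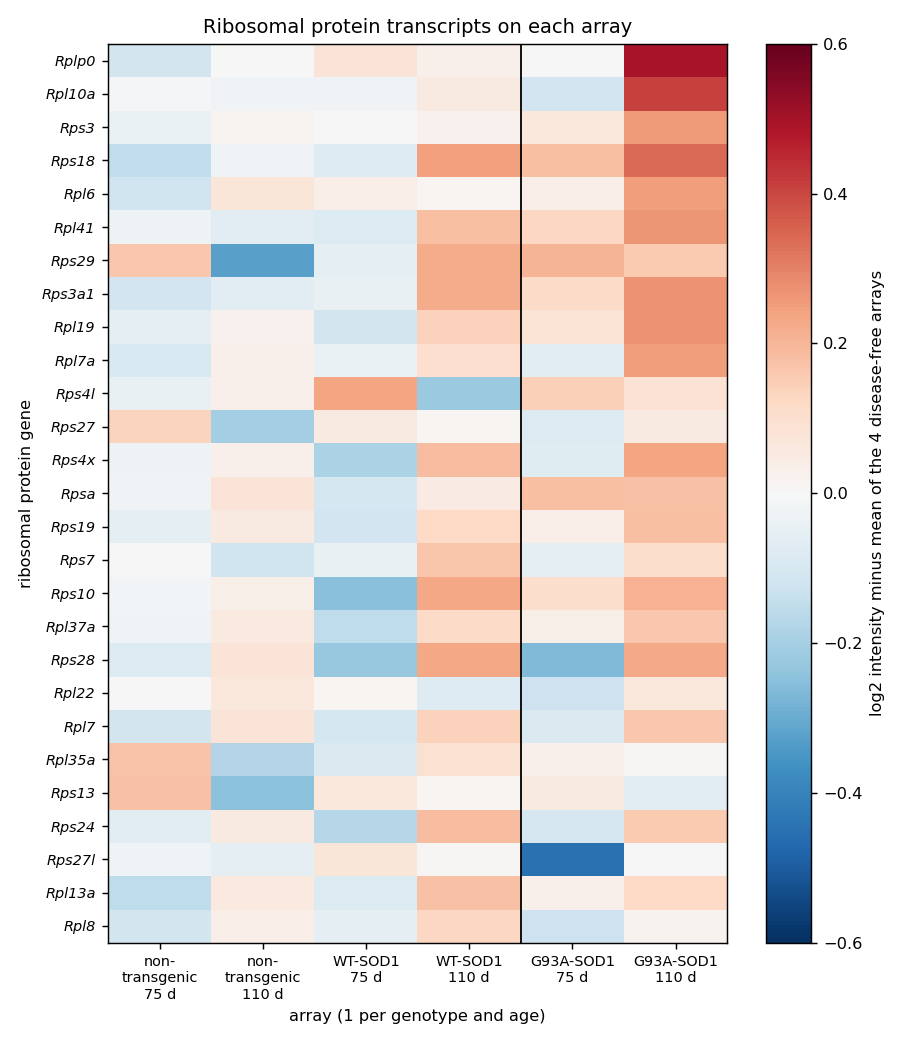
Log2 intensity of the 27 tested ribosomal protein genes (rows, ordered by the G93A-SOD1 difference at 110 days) on each of the 6 arrays (columns), as the difference from the mean of the 4 disease-free arrays; red is higher and blue is lower. The G93A-SOD1 110-day column is mostly red, with Rplp0 and Rpl10a deepest, the WT-SOD1 110-day column is also mostly red, and Rps27l is the deep blue cell at 75 days.

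The first comparison asked whether ribosomal protein transcripts differed in the diseased cord at 110 days. None of the 27 tested members passed the test in G93A-SOD1 against disease-free cord (limma with Benjamini-Hochberg adjustment over all probe sets, where 1.51% of the 6737 were called). The smallest adjusted p of a member was 0.251. Most members nevertheless read slightly higher on the G93A-SOD1 array. The median log2 difference was 0.11 (0.13 for the large and 0.11 for the small subunit), and 26 of 27 were above 0, beside a median of -0.02 and 45.0% above 0 over all tested probe sets. Each genotype and age has 1 array without a replicate, so p-values measure the spread between disease-free arrays of different genotype, and the lone array of diseased cord is taken to have the same spread. In whole cord a change in cell numbers and a change in RNA per cell cannot be told apart.

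Rplp0 encodes the base of the stalk of acidic proteins that recruits elongation factors to the large subunit, and it was the only measured gene of that stalk. At 75 and 110 days its intensity was 1136 and 1227 in nontransgenic, 1297 and 1255 in WT-SOD1, and 1228 and 1728 in G93A-SOD1 cord. The G93A-SOD1 110-day array stood alone above the other 5, which lay close together. The log2 difference at 110 days was 0.48 ± 0.14 (SE; 95% interval 0.14 to 0.82), a ratio of 1.39, with unadjusted p = 0.012 and limma adjusted p = 0.251.

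Rpl10a encodes the protein of the L1 stalk, the mobile arm through which used transfer RNA leaves the ribosome. It read 463 and 459 in nontransgenic, 460 and 484 in WT-SOD1, and 431 and 619 in G93A-SOD1 cord at 75 and 110 days. The 4 disease-free arrays were nearly level, the G93A-SOD1 75-day array was the lowest of all and the 110-day array the highest. The log2 difference at 110 days was 0.39 ± 0.13 (SE), a ratio of 1.31, with unadjusted p = 0.020 and limma adjusted p = 0.325. Another probe set of Rpl10a showed the same order of the G93A-SOD1 arrays, with 197 at 75 days and 310 at 110 days against 210 to 251 on the disease-free arrays.

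Rplp0 and Rpl10a were the 2 of 27 members with an unadjusted p under 0.05, a level that 10.3% of all probe sets reached.

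Rps3 lines the entrance through which messenger RNA reaches the small subunit. It read 1534 and 1592 in nontransgenic, 1572 and 1604 in WT-SOD1, and 1643 and 1883 in G93A-SOD1 cord. Both G93A-SOD1 arrays lay above all disease-free ones, and the 110-day array was the highest. The log2 difference at 110 days was 0.24 ± 0.13 (SE, limma adjusted p = 0.653).

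Rpl6, a protein of the large subunit, read 1350 and 1541, 1507 and 1477, and 1509 and 1748 in the same order of genotypes and ages. Only the G93A-SOD1 110-day array stood outside the range of the disease-free arrays. Its log2 difference was 0.21 ± 0.14 (SE). Rpl41, the shortest ribosomal protein, which bridges both subunits, also differed by 0.21 (± 0.15 SE) at 110 days. It read 4868 and 4731, 4697 and 5627, and 5421 and 5965. Here the WT-SOD1 110-day array lay between the G93A-SOD1 arrays, and the disease-free arrays overlapped with the G93A-SOD1 75-day value.

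At the other end stood Rpl8, a core protein close to the catalytic centre, which read 1703 and 1807 on the disease-free 110-day arrays and 1682 on the G93A-SOD1 array (log2 difference -0.06 ± 0.13 SE). Rpl13a, known for a second role as a translational repressor in inflammation, read 94.6 and 103 against 98.8, a difference of 0.002 ± 0.14 (SE). Rps27l, a paralog of Rps27 induced by p53, differed by 0.03 ± 0.14 (SE). The G93A-SOD1 value lay below both disease-free values for Rpl8 and between them for the other two.

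Counted by array, the G93A-SOD1 110-day value lay above both disease-free 110-day values for 16 of 27 members (59.3%), beside 25.6% of all tested probe sets. It lay below both for 1 member, Rpl8 (3.7%), beside 35.3%. It was the highest of all 6 arrays for 13 members (48.1%), beside 13.6%. These 13 were Rplp0, Rpl10a, Rps3, Rps18, Rpl6, Rpl41, Rps3a1, Rpl19, Rpl7a, Rps4x, Rps19, Rpl37a and Rpl7. For Rpl19 and Rps4x another tested probe set was highest on the G93A-SOD1 75-day array instead. The G93A-SOD1 110-day value was the lowest of the 6 for 0 members, beside 17.2%. The members share an array and an assay, so these counts describe 1 array and are not independent readings.

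The size of a shift was bounded only as far as the lone G93A-SOD1 array had the spread of the disease-free arrays. The intervals were not adjusted for the 27 members. The 95% intervals of all 27 members at 110 days lay within a 2-fold change in either direction, and those of 22 within 1.5-fold. The highest upper limit was a log2 difference of 0.82, that of Rplp0.

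The median rested on the control arrays. Without the nontransgenic 110-day array it was 0.05 with 17 of 27 members above 0, and without the WT-SOD1 110-day array it was 0.18 with 25 above 0. No member was called in either case.

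**Figure D2:**
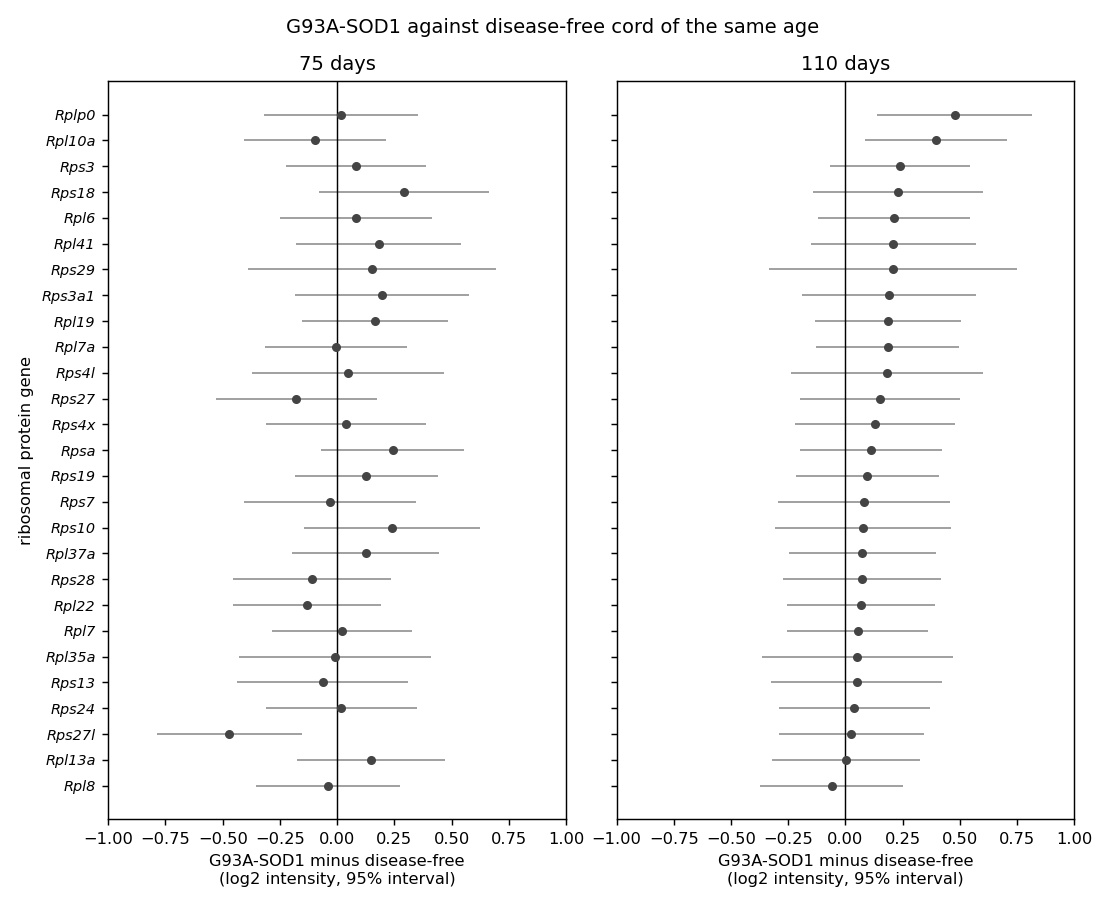
Log2 difference of G93A-SOD1 from disease-free cord for each of the 27 tested members at 75 days (left) and 110 days (right), with its 95% interval. Points at 110 days lie right of 0 for 26 of 27 members, but only the intervals of Rplp0 and Rpl10a stay clear of 0, and at 75 days only that of Rps27l does.

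The other functional sites had no call either. Around the exit of the peptide tunnel, Rpl19 differed by 0.19 ± 0.14 (SE) at 110 days and Rpl22 by 0.07 ± 0.14. Rpl19 read 1405 and 1484 in nontransgenic, 1350 and 1607 in WT-SOD1, and 1545 and 1755 in G93A-SOD1 cord. Its highest array on this probe set was G93A-SOD1 at 110 days, followed by WT-SOD1 at 110 days. Another tested probe set of Rpl19 read 243 and 212, 233 and 242, and 278 and 229, with a difference at 110 days of 0.02. There the G93A-SOD1 75-day array was the highest.

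On the platform where messenger RNA leaves the small subunit, Rpsa, also known as a laminin-binding protein, differed by 0.11 ± 0.13 (SE), and Rps28 by 0.07 ± 0.15. In the head of the small subunit, Rps10, which is ubiquitinated when ribosomes collide, differed by 0.08 ± 0.16. These 3 differences were smaller than their standard errors.

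A list of 9 genes known to be mutated in Diamond-Blackfan anaemia, an inherited failure of red cell production, had 5 measured genes. The list does not hold every gene linked to the disease. All 5 were above 0 at 110 days with 0 calls. Rps19, the listed gene most often affected, differed by 0.10 ± 0.13 (SE), Rps7 by 0.08 ± 0.16, Rps10 as given above, Rpl35a by 0.05 ± 0.18 and Rps24 by 0.04 ± 0.14. Each of these was smaller than its standard error.

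Rps4x lies on the X chromosome, unlike most ribosomal protein genes. It read 1165 and 1215, 1042 and 1353, and 1131 and 1402 (difference at 110 days 0.13 ± 0.15 SE). On this probe set the 110-day array was the higher in each genotype. Another tested probe set of Rps4x read 89.4 and 99.8, 108 and 102, and 113 and 110. It was higher at 110 days only in nontransgenic cord. The paralog Rps4l read 132 and 139, 160 and 117, and 150 and 145 (0.18 ± 0.18 SE). In Rps4l both G93A-SOD1 values lay inside the range of the disease-free arrays.

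**Figure D3:**
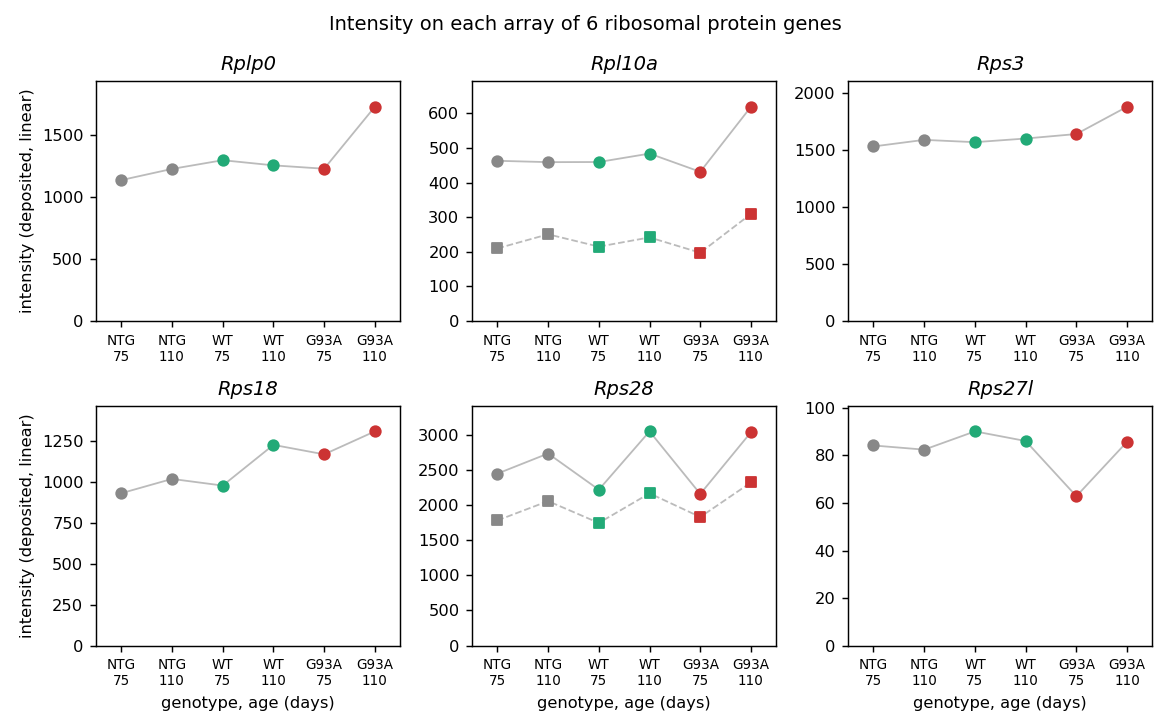
Deposited linear intensity (vertical axes, from 0) on each of the 6 arrays (NTG, nontransgenic; ages in days) for 6 members; squares show another tested probe set of the same gene, and lines only join points. Rplp0 and Rpl10a peak on the G93A-SOD1 110-day array (1728 and 619), Rps27l dips on the 75-day one (62.9), and Rps28 is high on the WT-SOD1 and G93A-SOD1 110-day arrays alike.

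The comparison at 75 days asked for differences before symptoms. No member passed, and 0.0% of all probe sets did. Unadjusted p was under 0.05 for 664 probe sets (9.86%) and for 1 member, Rps27l. The members' median log2 difference was 0.04, with 17 of 27 above 0, beside -0.04 and 42.5% above 0 over all tested probe sets.

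Rps27l read 84.2 and 82.5 in nontransgenic, 90.1 and 86.1 in WT-SOD1, and 62.9 and 85.8 in G93A-SOD1 cord at 75 and 110 days. The low value was that of the G93A-SOD1 75-day array alone, and the 110-day value lay within the disease-free range. The difference at 75 days was -0.47 ± 0.14 (SE; 95% interval -0.79 to -0.15), with unadjusted p = 0.010 and limma adjusted p = 0.460. Its single probe set lies close to the intensity above which probe sets were tested, and it carries a cross-hybridisation suffix.

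Rps27, a zinc-binding small subunit protein, read 374 and 296, 354 and 344, and 322 and 354. Its difference at 75 days was -0.18 ± 0.15 (SE), and the nontransgenic 110-day array was the lowest of the 6. Rpl22, which also has roles in lymphocyte development, followed at -0.13 ± 0.14 (SE). Another probe set of Rpl22 and another of Rps28 had the opposite sign at 75 days, so the direction of these 2 members was not settled.

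Rps18, which contacts the large subunit from the head of the small one, was highest above the disease-free arrays at 75 days. It read 929 and 1016, 975 and 1224, and 1166 and 1306. Both nontransgenic arrays and the WT-SOD1 75-day array lay below both G93A-SOD1 arrays, and the WT-SOD1 110-day array lay between them. The difference at 75 days was 0.29 ± 0.16 (SE, limma adjusted p = 0.578). Rpsa and Rps10 each followed at 0.24 (± 0.13 and ± 0.16 SE). Rpsa read 403 and 432, 380 and 423, and 463 and 462, so that both G93A-SOD1 arrays lay above all disease-free ones.

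The G93A-SOD1 75-day value lay above both disease-free 75-day values for 13 of 27 members (48.1%), beside 32.2% of all tested probe sets, and below both for 8 (29.6%), beside 46.8%. The 95% intervals of all 27 members lay within a 2-fold change and those of 23 within 1.5-fold.

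Taking both ages together, with age as a term, 0 members and 0.0% of all probe sets were called. Unadjusted p was under 0.05 for 14.0% of all probe sets and for 1 member, Rps18, with a difference of 0.26 ± 0.11 (SE, unadjusted p = 0.039, limma adjusted p = 0.324). Rplp0 stood at 0.25 ± 0.13 and Rpl41 at 0.20 ± 0.10 (SE), while Rps27l stood at -0.22 ± 0.13, Rpl8 at -0.05 ± 0.09 and Rpl22 at -0.03 ± 0.10. The median was 0.10, with 21 of 27 above 0, beside -0.03 and 43.05% above 0 over all tested probe sets. The 95% intervals of all 27 members lay within 1.5-fold in this fit.

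Whether the G93A-SOD1 difference changed from 75 to 110 days was tested directly. No member was called, beside 0.416% of all probe sets (28 calls, but 2 with arrays scaled to 1 median and 51 to 135 with 1 array left out), and 2 members had an unadjusted p under 0.05, beside 6.23%. Rps27l changed by 0.50 ± 0.19 (SE, unadjusted p = 0.034, limma adjusted p = 0.741), from its low value at 75 days. Rpl10a changed by 0.49 ± 0.19 (SE, unadjusted p = 0.033, limma adjusted p = 0.726), and Rplp0 by 0.46 ± 0.20 (SE, limma adjusted p = 0.806). The lowest values were those of Rps10 at -0.16 ± 0.23, Rpl13a at -0.15 ± 0.19 and Rpsa at -0.13 ± 0.19 (SE). The median change was 0.06 with 19 of 27 above 0, beside 0.005 and 50.8% above 0 over all tested probe sets. Without the nontransgenic 110-day array the members' median was -0.03 with 12 above 0. The sign of the median thus turned on 1 array.

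Age itself was compared between the disease-free arrays. No member was called, beside 0.0148% of all probe sets, and 1 had an unadjusted p under 0.05, beside 3.1%. The median log2 difference of 110 from 75 days was 0.13 with 20 of 27 members above 0. Over all tested probe sets it was -0.00 with 48.8% above 0. The median of G93A-SOD1 at 110 days was 0.11, as given above. Both comparisons use the disease-free 110-day arrays.

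Rps28, a small protein at the messenger RNA exit, gave the lowest p. It read 2445 and 2731 in nontransgenic, 2217 and 3046 in WT-SOD1, and 2156 and 3034 in G93A-SOD1 cord at 75 and 110 days. The 3 arrays at 110 days all lay above the 3 at 75 days. The disease-free difference was 0.31 ± 0.12 (SE, unadjusted p = 0.036, limma adjusted p = 0.998). Its other tested probe set also read higher at 110 days in each genotype, with 1780 and 2054, 1744 and 2165, and 1828 and 2320.

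Rps10 differed with age by 0.27 ± 0.13 (SE) and Rps24 by 0.24 ± 0.11 (SE). Rps10 read 755 and 784, 642 and 899, and 823 and 885, and Rps24 read 2829 and 3073, 2636 and 3368, and 2765 and 3304. Each genotype was higher at the later age in both genes, with the widest gap in WT-SOD1. Rps13, an early-assembling protein of the small subunit, went the other way, with 349 and 260, 323 and 311, and 321 and 294 (disease-free difference -0.24 ± 0.13 SE). Rps4l and Rps27 each stood at -0.19 (± 0.14 and ± 0.12 SE). The probe sets of Rps13, Rps24 and Rps4l carry a cross-hybridisation suffix.

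Both disease-free 110-day arrays lay above both 75-day arrays for 14 of 27 members (51.9%), beside 15.2% of all tested probe sets, and below both for 2 (7.41%), Rps13 and Rps27, beside 14.0%. All 3 genotypes were higher at 110 than at 75 days for 14 members (51.9%), beside 12.8%. The 2 sets of 14 differ in 1 gene each. Rps3a1 was higher with age in each genotype although its disease-free arrays of the 2 ages overlapped, and Rpsa was not higher in G93A-SOD1. Rpl19 and Rps4x are in both sets, but another tested probe set of each gene showed neither pattern.

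WT-SOD1 and nontransgenic cord were compared on the 4 disease-free arrays. No member was called, beside 0.104% of all probe sets, and 0 had an unadjusted p under 0.05, beside 1.17%. The median was 0.03 with 22 of 27 members above 0, beside 0.0038 and 51.15% above 0 over all tested probe sets. With arrays scaled to 1 median it was 0.014 with 17 above 0, and with quantile normalization 0.073 with 22 above 0. Rps3a1, a small subunit protein near the messenger RNA exit, was highest at 0.18, followed by Rps18 at 0.17 and Rps29 at 0.16, and Rpl22, Rpsa and Rpl37a were lowest at -0.06, -0.06 and -0.03 (each ± 0.19 SE). Rps3a1 read 1445 and 1497 in nontransgenic, 1519 and 1828 in WT-SOD1, and 1697 and 1889 in G93A-SOD1 cord. Its WT-SOD1 110-day value was close to that of G93A-SOD1 at 110 days and above that of G93A-SOD1 at 75 days.

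The WT-SOD1 110-day array was the highest of the 4 disease-free arrays for 18 of 27 members (66.7%), beside 24.0% of all tested probe sets. Against the mean of the 4 disease-free arrays, the members' median at 75 and 110 days was -0.04 and 0.03 in nontransgenic, -0.06 and 0.12 in WT-SOD1, and 0.03 and 0.18 in G93A-SOD1 cord. The array of diseased cord was thus highest and the healthy WT-SOD1 array of the same age second. The standard deviation of this median between disease-free arrays of one age was 0.05 for a single array. A difference between 2 arrays spreads more widely than a single array. The step between the 2 highest arrays, from 0.12 to 0.18, was therefore not set apart from that spread.

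**Figure D4:**
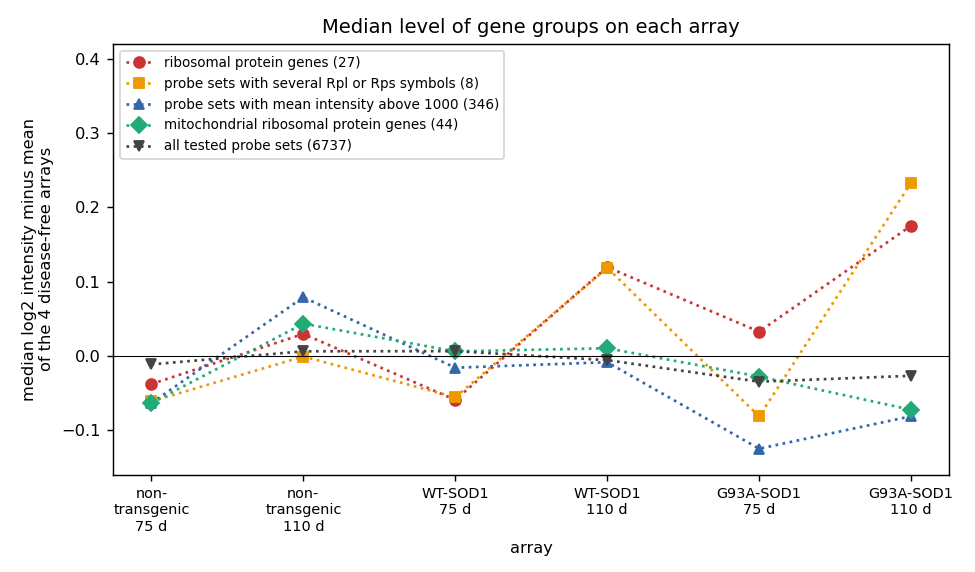
Median log2 intensity of gene groups on each array, as the difference from the mean of the 4 disease-free arrays (number of probe sets in brackets; lines only join points). The 27 ribosomal protein genes reach 0.12 on the WT-SOD1 and 0.18 on the G93A-SOD1 110-day array, while mitochondrial ribosomal protein genes, bright probe sets and all tested probe sets stay at 0.01 or below on both.

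The elevation on these arrays was also seen in ribosomal protein probe sets that the rule left out. A further 9 probe sets list several Rpl or Rps symbols, and 8 of them were tested. Their median was 0.12 on the WT-SOD1 and 0.23 on the G93A-SOD1 110-day array. For 5 of the 8 the latter was the highest of 6 arrays, beside 13.6% of all tested probe sets. At 110 days 0 were called, beside 1.51%. On the G93A-SOD1 75-day array the median of the 8 was -0.08, while that of the members was 0.03. Bright probe sets in general differed. The 346 tested probe sets with a mean intensity above 1000 include 14 members. The 346 had medians of -0.01 on the WT-SOD1 and -0.08 on the G93A-SOD1 110-day array. The 14 bright members had medians of 0.15 and 0.25. The 44 tested genes of the mitochondrial ribosome, whose symbols begin with Mrpl or Mrps and whose products translate only mitochondrial messages, had medians of 0.01 and -0.07.

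Other values also differed between the arrays, in part on those where the members were high. The summed intensity of 12 microglial markers was 1682 to 1988 on the disease-free arrays, 1939 on the G93A-SOD1 75-day array and 7922 on the 110-day array. There 11 of 12 were called higher, beside 1.51% of all tested probe sets called in either direction. Of the 11, Lyz2, Cst7 and Aif1 passed the level filter only through the array on which they were then called higher. Of 5 tested astrocyte markers 2 were called higher, Gfap and Serpina3n, with sums over the 6 on the array of 5722 to 6790, 7033 and 11226. Of 8 neuronal markers 1 was called lower, Nefm, with sums of 8540 to 10097, 7992 and 6935. No marker of these 3 lists lay at or under the floor on all 6 arrays. The 18S ribosomal RNA control probe set at the 3 prime end read 113 to 228 on the disease-free arrays, 273 on the G93A-SOD1 75-day and 342 on the 110-day array, in RNA selected for poly(A). On the WT-SOD1 110-day array, the bacterial spike-in controls (mean 1590, against 645 to 1198 on the others) and 7 markers of cerebellum (sum 3424, against 1010 to 2909) were highest. The nontransgenic 75-day array was second in both, and there the members' median was -0.04. The cerebellar sum was lowest on the 2 G93A-SOD1 arrays, 1010 at 75 and 1074 at 110 days, against 1433.5 to 3424 on the disease-free arrays. The part of cell makeup, cerebellar marker level, residual ribosomal RNA and spike-in level in the members' values was not tested. Hox genes of spinal cord position summed to 1568 to 1795 on all 6 arrays. Other lists had 0 calls at 110 days: oligodendrocyte markers (5 tested) had a median log2 difference of -0.23, motor neuron markers (3) of -0.18, lymphocyte markers (3) of -0.04, blood markers (3) of -0.36, cerebellar markers (6) of -1.42 and Hox genes (7) of 0.04.

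The other genes of translation had group medians near or below 0 at 110 days, and none was called. Of 32 tested initiation factor and related genes, 12 were above 0, with a median of -0.04. Pabpc1, encoding the main poly(A)-binding protein, was farthest from 0. It read 625 and 588 in nontransgenic, 630 and 534 in WT-SOD1, and 589 and 938 in G93A-SOD1 cord, so that 1 array stood clear of 5 that lay close together, as for Rplp0. Its difference was 0.74 ± 0.14 (SE, limma adjusted p = 0.0571). Eif4g3, a scaffold of cap-dependent initiation, stood at -0.62 ± 0.27 (SE, limma adjusted p = 0.501).

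Of 11 elongation and termination factor genes, 3 were above 0, with a median of -0.08. Eef1a1, which delivers aminoacyl transfer RNA to the ribosome, stood at 0.21 ± 0.13 (SE). It read 3892 and 4120, 3803 and 4090, and 3616 and 4743, with the G93A-SOD1 arrays at both extremes. Etf1, the release factor gene, was lowest at -0.42 ± 0.16 (SE).

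Of 34 ribosome biogenesis genes, 21 were above 0, with a median of 0.02. Rrp1, needed to mature the RNA of the large subunit, stood at -0.39 ± 0.13 and Rrn3, an initiation factor of RNA polymerase I, at -0.33 ± 0.30 (SE). The 7 tested genes of the mTOR and S6 kinase pathway, through which nutrient and growth signals reach the ribosome, had a median of -0.18 with 1 above 0. Larp1, which binds pyrimidine tracts, stood at -0.38 ± 0.16 and Tsc1, an inhibitor of mTOR, at -0.30 ± 0.16 (SE). Among 6 ribosome-associated genes the median was -0.03 with 3 above 0. Serbp1, whose product sits on idle ribosomes, stood at -0.45 ± 0.18 and Rnh1, the ribonuclease inhibitor, at 0.25 ± 0.17 (SE). Of the 44 mitochondrial ribosomal protein genes 11 were above 0 at 110 days, with a median of -0.08, and Mrps21 and Mrps11 were lowest at -0.35 ± 0.13 and -0.28 ± 0.13 (SE).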

How the data were processed

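The authors deposited a linear intensity for each probe set on each array. The probe summary and array scaling behind it are not given in the sources used here. Per the labels' protocols, Trizol RNA of 4 spinal cords per array was selected for poly(A), labelled as biotin cRNA and hybridised once. Of 12488 rows, 66 are control probe sets, read only as quality values. Of the other 12422, 10833 had 1 gene symbol in the platform annotation, 396 several and 1193 none here. RefSeq gave Entrez matches for 10817, and 0 symbols changed.

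From the deposited intensities, log2 values floored at the 25th percentile were fitted with limma 3.58.1 in R 4.3.3 (lmFit, eBayes, Benjamini-Hochberg over 6737 probe sets at 0.05). The fit had 4 means (disease-free and G93A-SOD1 at each age) and 2 residual degrees of freedom. The fit over both ages had 3. WT-SOD1 against nontransgenic used 4 arrays, 1 residual degree of freedom and 1 pooled spread. SE is the moderated standard error, and intervals are at 95%. The number of arrays limits the precision. The fits were tested on simulated data. In each run 200 probe sets were changed, by up to 4-fold, in arrays without age or genotype differences. The spread was drawn from the fitted model. On average 4.8 to 6.8 unchanged probe sets were called per run. The share found depends on how many probe sets change. It can be lower in the real data, where 0 were called at 75 days and over both ages. Most simulated shifts of 2-fold were found by the G93A-SOD1 comparisons of a single age (74.9% for the later age, 71.4% for the earlier). Shifts of 1.5-fold were mostly missed there (6.9% and 6.4% found), and those of 1.3-fold almost always (0.6% found for either age). The fit over both ages found 62.8% of the 1.5-fold and 12.9% of the 1.3-fold shifts. The absence of a called member thus says little about shifts of 1.5-fold or less at a single age.

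The members and lists were chosen with earlier results of these data known. Named were, by rule, the 3 highest and 3 lowest members of each comparison, the 5 brightest and 5 dimmest, members of role groups or with probe sets of differing sign, and calls of other lists or their 2 genes farthest from 0. Other members are named for completeness, after their values were seen. Alternatives were the floor, the filter, scaling, terms for spike-in level and WT-SOD1, and each disease-free array left out.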

Additional observations from a re-analysis of the deposited data

Results flagged for a closer look

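The control probe sets for 18S ribosomal RNA, the RNA on which most small subunit proteins assemble, take no part in the comparisons and gave a signal above all 4 disease-free arrays on both G93A-SOD1 arrays. The 3 prime probe set read 273 at 75 days and 342 at 110 days, against 113 to 228 on the disease-free arrays. The middle probe set read 86.9 and 91.2, against 31.8 to 68.8. The 5 prime probe set read 76.2 and 101, against 25.4 to 74.3. The RNA had been selected for poly(A), which 18S ribosomal RNA lacks. At 75 days the members' median difference was 0.04 and at 110 days 0.11, and the part of 18S carry-over in these was not tested.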

How the results depend on the processing

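No member was called in any comparison under any alternative run. The members' median log2 difference moved as follows, in most cases by over 1.5 times and in part to or from values close to 0. With no filter on level the median covers all 35 members, while the differences of the 27 tested members stayed the same. The 8 members added there include 3 at or under the floor on all 6 arrays. For G93A-SOD1 at 110 days the median was 0.11, and 0.074 with no filter. It was 0.16 with a term for the arrays with higher spike-in levels. Leaving out 1 array in turn gave 0.047 (without nontransgenic 110 days) to 0.18 (without WT-SOD1 110 days). At 75 days it was 0.038, 0.018 with no filter, 0.065 with arrays scaled to 1 median, 0.064 without nontransgenic 75 days, 0.076 with the spike-in term, 0.081 over probe sets without a cross-hybridisation suffix and 0.11 with quantile normalization. Over both ages it was 0.10, 0.062 without nontransgenic 110 days and 0.16 with quantile normalization. For the change between ages it was 0.061, 0.026 with arrays scaled to 1 median, 0.032 with no filter, 0.031 without nontransgenic 75 days, -0.029 without nontransgenic 110 days and 0.14 without WT-SOD1 110 days. For age it was 0.13, 0.045 with no filter, 0.064 with quantile normalization, and 0.094 (without WT-SOD1 110 days) to 0.19 (without nontransgenic 110 days). For WT-SOD1 it was 0.032, 0.014 with arrays scaled to 1 median, 0.058 as the median over all probe sets of each gene and 0.073 with quantile normalization. Apart from the added members with no filter, the cause was not tested.

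Single members, none of them called, changed sign in 12 of 297 refitted values at 110 days and 20 of 297 at 75 days. Over both ages it was 20 of 297, and for the change between ages 26 of 297. For age it was 15 of 297 and for WT-SOD1 9 of 135. These totals include settings that could not change a tested member's difference. Among them are the higher floor, the filters and, at a single age, leaving out an array of the other age. The shares therefore overstate how stable the signs were. Over all probe sets the 102 calls at 110 days became 42 with no filter, 66 with a higher floor, 266 with the spike-in term, and 148 to 591 with 1 array left out. The 0 calls at 75 days became 50 with no filter, 54 with a WT-SOD1 term, 1 with the spike-in term, and 13 to 116 with 1 array left out. The 28 calls for the change between ages became 2 with arrays scaled to 1 median, 3 with the higher floor, 16 when filtered on mean level, 70 with a WT-SOD1 term, 76 with no filter, 90 with the spike-in term, and 51 to 135 with 1 array left out. The 1 call for age became 0 with no filter, 6 with the spike-in term, 15 with a WT-SOD1 term and 2 to 17 with 1 array left out. Over both ages the 0 calls became 1 with a WT-SOD1 term and 0 to 1 with 1 array left out. The 7 calls for WT-SOD1 became 0 with a higher floor, no filter, arrays scaled to 1 median or quantile normalization. No paired analysis was possible because each group has 1 array and the labels number no replicates.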
